A study of Rattus norvegicus with 9 samples.

Results

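The cadherins and protocadherins of the rat vestibular epithelium were followed through oral exposure to the ototoxic nitrile 3,3'-iminodipropionitrile (IDPN). Members were the protein-coding genes with a Cdh or Pcdh symbol followed by a number and a total of at least 10 counts over the 9 libraries. The tip-link pair Cdh23 and Pcdh15 was excluded by the rule, and 62 genes of the 32883 in the table remained. They carried 61 symbols, since 2 gene identifiers shared the symbol Pcdha4. They comprised 5 type I classical cadherins, 11 type II classical cadherins, 5 other cadherins, 3, 16 and 12 members of the protocadherin alpha, beta and gamma clusters, and 10 non-clustered protocadherins.

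All groups were male Long-Evans rats, with 3 libraries per group and 1 rat per library. The Control rats drank plain water, the IDPN-3wk rats drank water with 20 mM IDPN for 3 weeks, and the IDPN-7wk rats the same for 7 weeks. The 6 cristae and 2 utricles of a rat were pooled, so sensory hair cells (HCs), supporting cells and the nerve, vascular and stromal cells beneath them were sequenced together. A single control group served both exposure times and held animals killed at each of them, and the rats' age was not given in the labels.

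Cadherins are calcium-dependent adhesion proteins whose extracellular repeats bind a partner on the next cell. Classical cadherins hold adherens junctions together and are tied to actin through catenins. Clustered protocadherins are encoded by arrays of alternative first or single exons, of which a neuron typically uses a few, so that neighbouring cells carry different combinations on their surface.

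Library totals ran from 31100118 to 46018385 counts, and a floor of 3 counts corresponded to 0.0611 to 0.101 CPM (counts scaled to a common library size). At equal depth, 15387 to 15501 genes were detected in 3 libraries (the third Control library and the first and second IDPN-3wk libraries) and 16829 to 17296 in the other 6. The 3 libraries stood apart, and results that rest on them are given below with and without them. The summed level of 8 HC markers was 1825 to 1960 CPM in Control, 1075 to 1303 CPM in IDPN-3wk and 1040 to 1227 CPM in IDPN-7wk. Otof (means of 703, 353 and 351 CPM) and Myo6 (533, 364 and 382 CPM) were its largest parts. At 3 weeks each marker was below Control in every library except Gfi1, which overlapped with it (means of 36.5, 53.7 and 14.9 CPM). At 7 weeks all 8 were below Control in every library. The summed level of 6 supporting cell markers was 12540 to 13110, 7484 to 9431 and 5103 to 7365 CPM in the same order. Otog was the largest part of this sum, with means of 8473, 4674 and 3533 CPM. At 3 weeks Otog, Otogl and Gjb6 were below Control in every library, whereas Slc1a3, Gjb2 and Lfng overlapped with it. At 7 weeks all 6 were below Control in every library. In bulk tissue, fewer cells of a type and less RNA per cell cannot be told apart from the counts alone. For HCs, the paper used cell counts from a separate batch of rats exposed for slightly longer. From these it calculated that HC loss in the IDPN-3wk samples was small at most. It concluded that such limited loss could not account for the decreases in HC-specific RNA. The paper also drew on labelling of HCs in other exposed rats. There the RNA of a single HC-specific gene was lower per HC, as were several proteins, though not every protein examined. In the group exposed longest it considered a significant loss of HCs likely.

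Across the family, the protocadherin beta cluster had the lowest levels in exposed rats relative to Control. Its median difference was -1.30 on the log2(CPM + 2) scale at 3 weeks and -1.33 at 7 weeks, against -0.0079 and 0.013 over all 17609 genes with at least 10 counts. The gamma cluster had medians of -0.71 and -0.38, the type II classical cadherins -0.54 and -0.39, and the alpha cluster -0.35 and -0.25. The medians of the type I classical cadherins (0.088 and -0.16), the other cadherins (-0.027 and 0.17) and the non-clustered protocadherins (0.025 and -0.019) lay nearer to 0. Of the 62 members, 47 at 3 weeks and 48 at 7 weeks had a lower mean than Control (75.8% and 77.4%), against 51.5% and 47.4% of all genes.

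**Figure D1:**
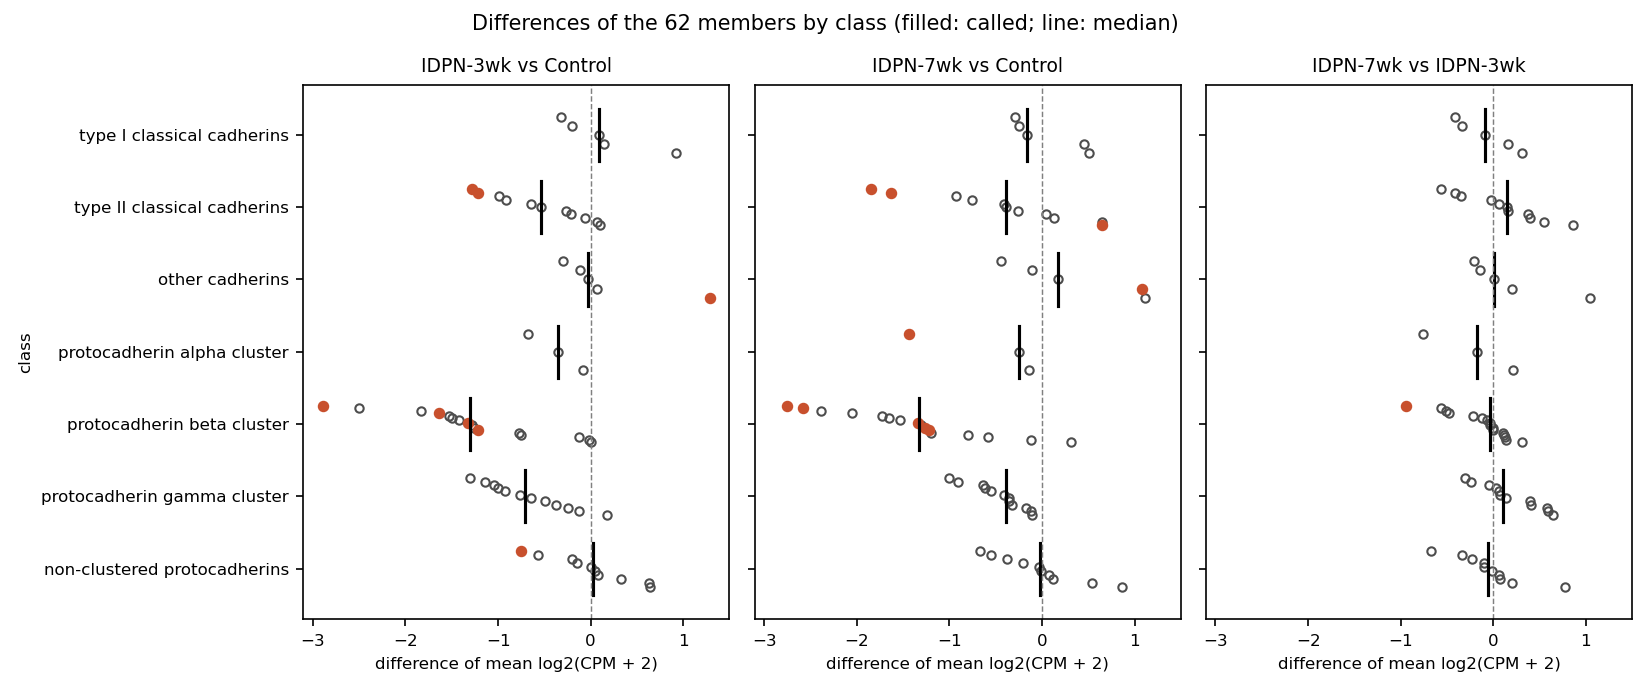
Difference between group means of log2(CPM + 2) for each of the 62 members (points), by class, in the 3 comparisons. Filled points were called by edgeR and vertical lines are class medians; the beta cluster points lie furthest to the left in both comparisons with Control, with medians of -1.30 and -1.33, and its median lies at -0.034 between 7 and 3 weeks.

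A gene was called a differentially expressed gene (DEG) at an adjusted p under 0.05, by edgeR's quasi-likelihood test with Benjamini-Hochberg adjustment over the 15517 genes tested, and a fold change above 1.5. At 3 weeks 8 of the 56 members tested were called, 7 lower (Cdh18, Cdh19, Pcdhb5, Pcdhb10, Pcdhb19, Pcdhb20 and Pcdh20) and 1 higher (Cdhr2), where 1.65% of all genes tested were called (1.21% lower, 0.438% higher). At 7 weeks 10 were called, 8 lower (Cdh18, Cdh19, Pcdha6, Pcdhb3, Pcdhb10, Pcdhb12, Pcdhb19 and Pcdhb20) and 2 higher (Cdh5 and Cdhr2), where 5.13% of all genes were called (3.13% lower, 2.00% higher). Between 7 and 3 weeks only Pcdhb19 was called, lower, where 0.483% of all genes were called (0.135% lower, 0.348% higher). The 2 comparisons with Control share the same 3 Control libraries. Cdh10, Cdh26, Cdhr5, Pcdhb1, Pcdhb2 and Pcdh8 were too low to be tested.

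In 23 members at 3 weeks and 28 at 7 weeks every exposed library was below every Control library, where 10.1% and 15.5% of all genes with at least 10 counts were so placed. In 3 and 6 members every exposed library was above every Control library, against 7.88% and 16.1% of all genes. At an unadjusted p under 0.05, 22 members were lower and 4 higher at 3 weeks, against 8.63% and 7.12% of all genes tested, and 18 were lower and 3 higher at 7 weeks, against 10.7% and 8.55%.

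Without the 3 libraries with fewer detected genes, edgeR called 6 members at 3 weeks, of which Cdh18, Pcdhb5 and Pcdhb19 were among the 8 above and the 5 others had adjusted p from 0.0744 to 0.121, with IDPN-3wk replicate 3 alone in its group and assumed to vary like the others, where 1.34% of all genes tested were called. Without the same libraries it called 26 members at 7 weeks, of which 25 were lower, and 9 of the 10 above were among them, Cdh5 being the exception, and the share of all genes called rose to 9.56% from 5.13%.

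The beta cluster genes are single-exon genes, each with its own promoter, that encode homophilic adhesion proteins without the cytoplasmic part shared by alpha or gamma proteins. The summed level of the 16 members was 93.8, 85.7 and 83.7 CPM in the Control libraries, 3.16, 18.8 and 12.4 CPM in IDPN-3wk, and 3.97, 4.91 and 6.10 CPM in IDPN-7wk. Every exposed library lay far below every Control library, although the IDPN-3wk libraries were widely spread. The means were 87.7 ± 5.34, 11.4 ± 7.87 and 4.996 ± 1.07 CPM (SD, n = 3), which is 7.66-fold lower than Control at 3 weeks and 17.6-fold lower at 7 weeks. In counts, 2737 to 3477 reads per Control library were assigned to the cluster, 116 to 559 per IDPN-3wk library and 195 to 241 per IDPN-7wk library. Of the 16 members 1, 1 and 3 were at 0 in the Control libraries, 15, 9 and 4 in IDPN-3wk, and 6, 5 and 6 in IDPN-7wk.

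The beta cluster was lower within each set of libraries. Among those with fewer detected genes, the median difference of IDPN-3wk replicates 1 and 2 from Control replicate 3 was -1.21. Within the other libraries it was -1.39 for IDPN-3wk replicate 3 and -1.47 for the IDPN-7wk libraries, each against Control replicates 1 and 2.

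**Figure D2:**
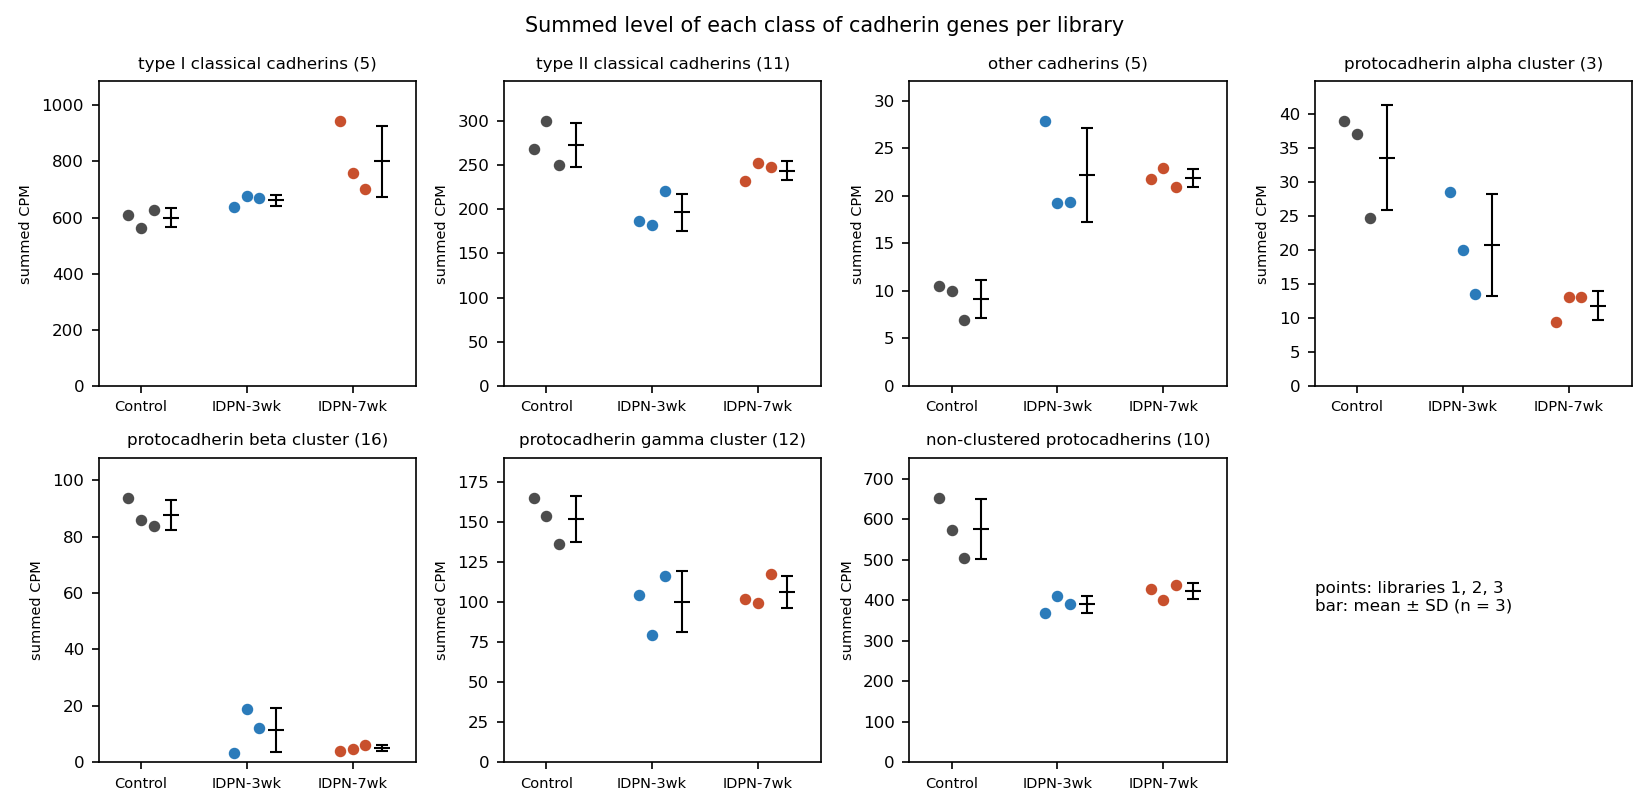
Summed CPM of each class (number of members in brackets) in each library, with the group mean and SD beside the points (n = 3). The beta cluster sums of 83.7 to 93.8 CPM in Control stand above all exposed libraries, which lie between 3.16 and 18.8 CPM, and the axes start at 0.

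Because beta members are similar in sequence, reads that fit several of them were divided between them by estimation, and values of single members are less certain than the sum. The locus also holds the pseudogene Pcdhb6, outside the rule, which had 88, 24 and 110 counts in the Control libraries and 0 in all 6 exposed libraries. Of the 16 members, 11 at 3 weeks and 13 at 7 weeks had every exposed library below every Control library. Of all genes with at least 10 counts, 10.1% and 15.5% were so placed. Of the 14 tested, 4 at 3 weeks and 5 at 7 weeks were called lower, and none was called higher. The shares of all genes called lower were 1.21% and 3.13%. At an unadjusted p under 0.05, 11 and 12 were lower, against 8.63% and 10.7% of all genes tested. Many of the 14 passed the filter through their Control counts, where they were high, so few could have been called higher. With at least 10 counts in every library, Pcdhb19 alone remained, called lower at both times. DESeq2 added calls of Pcdhb7 and Pcdhb12 at 3 weeks, and at 7 weeks of Pcdhb5, Pcdhb7, Pcdhb11, Pcdhb14 and Pcdhb21.

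Pcdhb19 was measured at 16.0, 15.4 and 9.23 CPM in Control, 3.16, 3.40 and 2.18 CPM in IDPN-3wk, and 0.570, 0.658 and 0.380 CPM in IDPN-7wk. The 3 groups did not overlap and were ordered Control, IDPN-3wk, IDPN-7wk from high to low. Its edgeR log2 fold change from Control was -2.21 ± 0.36 (SE, adjusted p = 0.0152) at 3 weeks and -4.64 ± 0.41 (adjusted p = 0.000191) at 7 weeks. Between 7 and 3 weeks it was -2.43 ± 0.38 (adjusted p = 0.0213), with all 3 IDPN-7wk libraries below all 3 IDPN-3wk libraries. The call at 3 weeks was lost without Control replicate 1 (adjusted p = 0.0949) or 2 (0.0858), and the call at 7 weeks was kept under every alternative run. The call between 7 and 3 weeks was lost without Control replicate 1 or 2, IDPN-3wk replicate 1 or any IDPN-7wk library (adjusted p from 0.0539 to 0.121).

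Pcdhb20 was measured at 13.7, 10.2 and 20.4 CPM in Control, 0, 0.236 and 0.338 CPM in IDPN-3wk, and 0.591, 0.0411 and 0.633 CPM in IDPN-7wk. Its lowest Control library was above 10 CPM and no exposed library reached 1 CPM. The edgeR log2 fold change was -6.27 ± 1.09 (SE, adjusted p = 0.0207) at 3 weeks and -5.13 ± 1.01 (adjusted p = 0.0150) at 7 weeks, and the 2 exposed groups overlapped. The call at 3 weeks was lost without any Control library or IDPN-3wk replicate 2 (adjusted p from 0.0554 to 0.0797), and at 7 weeks without Control replicate 1 or 3 or IDPN-7wk replicate 1 or 3 (0.0522 to 0.0610).

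Pcdhb10 was measured at 1.65, 2.41 and 4.28 CPM in Control and received no count in any of the 6 exposed libraries. The Control mean was 91.6 times the floor of 3 counts over the IDPN-3wk group and 127 times that over the IDPN-7wk group. These ratios cover counting error only and not the spread between rats. The edgeR adjusted p was 0.0384 at 3 weeks and 0.0151 at 7 weeks. The call at 3 weeks was lost without any Control library, IDPN-3wk replicate 1 or 2 or IDPN-7wk replicate 3 (adjusted p from 0.0546 to 0.134). It was also lost with the libraries of fewer detected genes as a covariate (0.0544), and with only the 2 groups compared in the fit. The call at 7 weeks was lost without Control replicate 2 (0.0609) or 3 (0.0516).

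Pcdhb12 was measured at 4.96, 4.64 and 0.816 CPM in Control, with Control replicate 3 well below the other two. Its level was 0, 0 and 0.277 CPM in IDPN-3wk and 0 in the IDPN-7wk libraries (edgeR adjusted p = 0.0346 at 7 weeks). The Control mean was 159 times the floor of 3 counts over the IDPN-7wk group. That ratio covers counting error only and not the spread between rats. At 3 weeks the adjusted p was 0.172, and the call at 7 weeks was lost without Control replicate 1 or 2 or any IDPN-7wk library (0.101 to 0.116).

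Pcdhb3 was measured at 1.92, 1.85 and 5.68 CPM in Control, 0, 2.32 and 0.799 CPM in IDPN-3wk, and 0, 0.0206 and 0.0506 CPM in IDPN-7wk. The IDPN-3wk libraries overlapped with Control, and the IDPN-7wk libraries, at or under the floor, did not. The edgeR log2 fold change was -6.93 ± 1.75 (SE, adjusted p = 0.0467) at 7 weeks and -1.60 ± 1.32 (adjusted p = 0.614) at 3 weeks. The call was lost without any Control library, IDPN-3wk replicate 3 or any IDPN-7wk library (adjusted p from 0.0618 to 0.182), and with the libraries of fewer detected genes as a covariate (0.0780).

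Pcdhb5 was measured at 4.53, 2.91 and 2.08 CPM in Control, 0, 0 and 0.0615 CPM in IDPN-3wk, and 0.305, 0.267 and 0.0760 CPM in IDPN-7wk. Both exposed groups lay below every Control library. The edgeR log2 fold change was -7.07 ± 1.27 (SE, adjusted p = 0.0224) at 3 weeks and -3.85 ± 1.02 (adjusted p = 0.0565) at 7 weeks. At 3 weeks the call was lost without Control replicate 1 (adjusted p = 0.105) or 2 (0.0815) or IDPN-3wk replicate 2 (0.0518), and with only the 2 groups compared in the fit. A call at 7 weeks was gained without any IDPN-3wk library (0.0311 to 0.0366). The same call was gained with only the 2 groups, and with the libraries of fewer detected genes as a covariate.

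Pcdhb14 was measured at 14.3, 14.9 and 6.98 CPM in Control, 0, 3.10 and 3.41 CPM in IDPN-3wk, and 1.04, 0.946 and 1.90 CPM in IDPN-7wk. The groups did not overlap with Control, but the differences did not pass the test (log2 fold change -2.48 ± 1.07 and -3.22 ± 1.11, SE, edgeR adjusted p = 0.30 and 0.135). Pcdhb22 showed the same at 9.55, 8.83 and 14.8 CPM in Control, 0, 0 and 0.922 CPM in IDPN-3wk, and 0.0204, 0.822 and 0.582 CPM in IDPN-7wk (adjusted p = 0.127 and 0.106). In Pcdhb7 the Control libraries were at 3.56, 4.29 and 3.10 CPM and no exposed library exceeded 0.448 CPM (adjusted p = 0.0996 and 0.128). Pcdhb9, Pcdhb11 and Pcdhb21 were likewise above every exposed library in Control, at 0.928 to 7.61 CPM against at most 0.861 CPM, and did not pass the test.

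Some beta members overlapped between groups. Pcdhb4 was at 6.26, 6.42 and 10.2 CPM in Control and at 0, 6.40 and 1.69 CPM in IDPN-3wk, where replicate 2 reached the Control range, and at 0.0611, 1.34 and 1.37 CPM in IDPN-7wk. Pcdhb8 was at 2.75, 1.38 and 0 CPM in Control, 0, 3.17 and 1.01 CPM in IDPN-3wk, and 0.183, 0 and 0.203 CPM in IDPN-7wk. Pcdhb2 had 20 counts in the Control libraries together and 0 in the exposed ones. Pcdhb1 went the other way without being tested, with 0 counts in all Control and IDPN-3wk libraries and 36, 0 and 31 counts in IDPN-7wk.

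**Figure D3:**
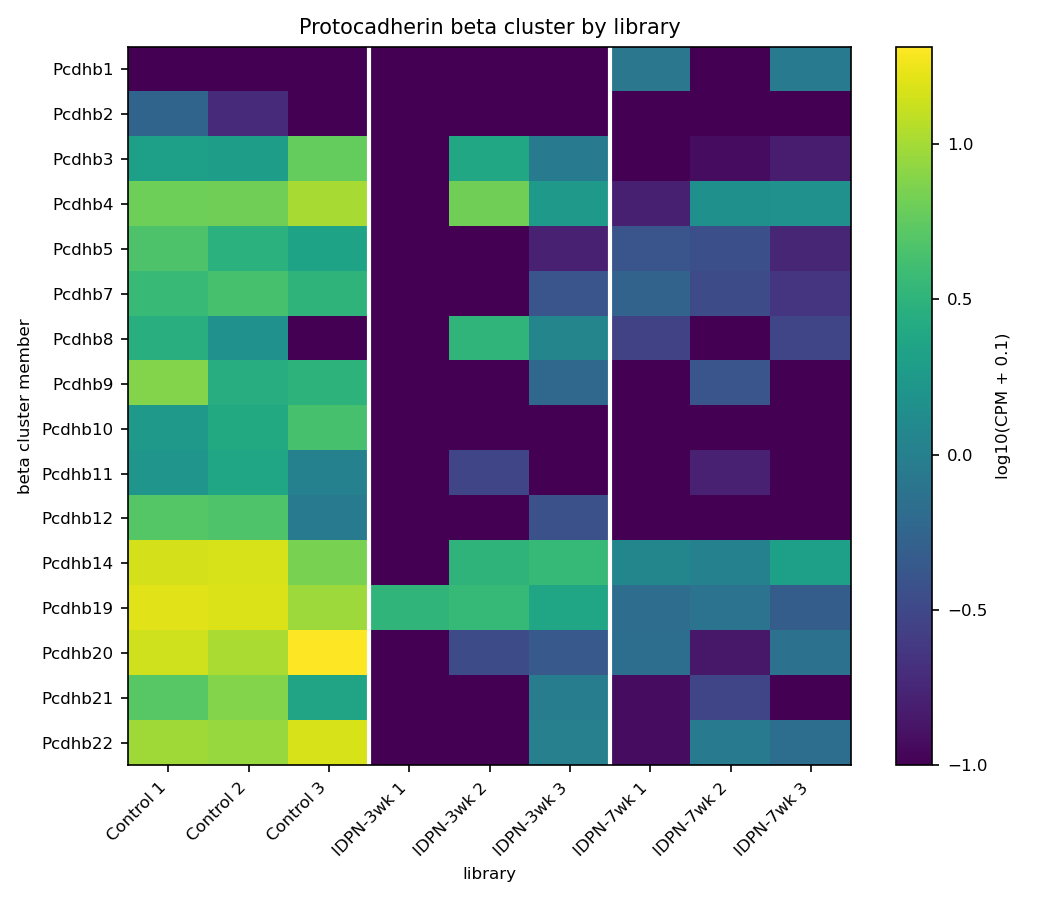
Level of the 16 beta cluster members (rows) in each library (columns), as log10(CPM + 0.1), with white lines between the groups. In Control at most 3 members per library are at 0 (darkest colour), whereas in the exposed libraries 4 to 15 are, and Pcdhb19 is the 1 member above 0 in IDPN-3wk replicate 1.

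The beta promoters share a short sequence. In many clustered protocadherin promoters of mammals, a conserved sequence element bound by the insulator protein CTCF lies just upstream of the start, and looping between it and distant enhancers takes part in choosing the promoter that is used. Of all words of 10 letters, GGTGGCGCTG was held by the most beta member promoters, 13 of the 14 with a RefSeq sequence (92.9%; assembly GRCr8, 250 bases before to 50 bases after the start), the exception being Pcdhb1. The word was chosen for being shared by them. Searched on both strands, it was found in 74 of 33469 promoters of the same length (0.221%), of which 15 carried a Pcdhb symbol, and in none of the 32 promoters available for the other classes. RefSeq promoters were matched by symbol to 45 of the 61 member symbols. For 7 of the beta members described above, the 50 bases around the match are given, with the word in capitals:

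Pcdhb3, chr18:29285594-29285643, plus strand: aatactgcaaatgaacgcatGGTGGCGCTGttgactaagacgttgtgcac
Pcdhb5, chr18:29302394-29302443, plus strand: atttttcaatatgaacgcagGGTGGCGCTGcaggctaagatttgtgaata
Pcdhb10, chr18:29391768-29391817, plus strand: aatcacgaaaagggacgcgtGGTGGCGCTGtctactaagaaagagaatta
Pcdhb12, chr18:29413638-29413687, plus strand: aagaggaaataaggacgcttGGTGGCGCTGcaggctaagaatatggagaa
Pcdhb14, chr18:29431799-29431848, plus strand: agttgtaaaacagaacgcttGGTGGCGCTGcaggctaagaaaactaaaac
Pcdhb19, chr18:29478754-29478803, plus strand: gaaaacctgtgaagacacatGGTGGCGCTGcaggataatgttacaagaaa
Pcdhb20, chr18:29485800-29485849, plus strand: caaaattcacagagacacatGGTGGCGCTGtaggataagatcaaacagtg

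In these 7 promoters the word began 52 to 98 bases before the start. Over all 13 beta promoters that hold it, the distance ran from 46 (Pcdhb7) to 208 bases (Pcdhb8). The match is a description of the letters, and binding was not measured. Of 11 genes for CTCF, cohesin and other chromatin proteins that act at clustered protocadherin promoters, none was called in any comparison. Ctcf itself was at 31.8, 32.0 and 45.3 CPM in Control, 58.0, 53.3 and 29.4 CPM in IDPN-3wk, and 22.1, 29.4 and 25.6 CPM in IDPN-7wk.

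Genes around the arrays were not called. In the RefSeq gene order, Zmat2 lies before the clusters, Taf7 and Slc25a2 among them and Diaph1 after them, and none of the 4 passed the test in any comparison. The mean level of Taf7, a subunit of the general transcription factor TFIID, was 19.8 ± 1.34 CPM in Control, 23.5 ± 8.19 in IDPN-3wk and 25.3 ± 2.73 in IDPN-7wk (SD, n = 3). Diaph1, an actin-nucleating formin, had a mean of 9.38 ± 3.89, 19.6 ± 3.18 and 16.0 ± 2.94 CPM. Slc25a2 went the other way, at 4.8, 2.6 and 2.25 CPM in Control and 1.88, 1.95 and 1.999 CPM in IDPN-3wk. All its IDPN-3wk libraries were thus below Control, whereas its IDPN-7wk libraries, at 2.12, 1.56 and 3.22 CPM, overlapped with it. Its edgeR log2 fold changes were -0.73 and -0.49 (adjusted p = 0.534 and 0.691). Zmat2 overlapped with Control at both times.

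The gamma cluster, whose variable exons are spliced to shared constant exons, had smaller differences. Its 12 members summed to 165, 154 and 137 CPM in Control, 105, 79.5 and 117 CPM in IDPN-3wk, and 102, 99.6 and 118 CPM in IDPN-7wk. The exposed groups lay below Control at both times, by 1.51-fold and 1.43-fold in the means. At 3 weeks 11 of 12 members and at 7 weeks all 12 had a lower mean than Control, but none was called, and 4 and 1 were lower at an unadjusted p under 0.05. Over all genes 51.5% and 47.4% had a lower mean, and 8.63% and 10.7% of those tested were lower at that p. The median difference at 3 weeks was -0.57 among libraries with fewer detected genes, and -0.32 among the others.

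Among single gamma members, Pcdhgb7 was at 44.2, 43.6 and 43.4 CPM in Control, 36.6, 23.0 and 43.1 CPM in IDPN-3wk, and 31.6, 34.3 and 38.4 CPM in IDPN-7wk. All exposed libraries were below Control, IDPN-3wk replicate 3 only just so. The edgeR log2 fold changes were -0.35 ± 0.21 and -0.33 ± 0.21 (SE, adjusted p = 0.445 at both times). At 3 weeks the difference on the log2(CPM + 2) scale was -0.55 among libraries with fewer detected genes and -0.025 within the others. Pcdhgb6 had means of 17.0 ± 2.95, 11.6 ± 1.94 and 12.4 ± 2.79 CPM and Pcdhga6 of 13.7 ± 2.84, 8.59 ± 4.45 and 8.50 ± 3.20 CPM (SD, n = 3), with adjusted p from 0.293 to 0.462. Pcdhga11 was at 8.14, 7.71 and 9.20 CPM in Control, 5.37, 1.31 and 2.18 CPM in IDPN-3wk, and 5.80, 4.69 and 4.71 CPM in IDPN-7wk. Its exposed libraries all lay below Control, without an edgeR call (adjusted p = 0.157 and 0.459), and DESeq2 called it at 3 weeks. Pcdhga3 and Pcdhgb8 were also below Control in every exposed library at both times (adjusted p from 0.245 to 0.457), whereas Pcdhga8, at 12.9, 7.61 and 5.66 CPM in Control and 5.96 to 11.5 CPM in exposed rats, overlapped.

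In the alpha cluster, which also shares constant exons and lies next to the beta array, 1 of the 3 members was called. Pcdha6 was at 36.8, 33.8 and 19.8 CPM in Control, 25.4, 16.9 and 12.4 CPM in IDPN-3wk, and 7.07, 10.8 and 11.2 CPM in IDPN-7wk. The IDPN-7wk libraries were below all Control and all IDPN-3wk libraries, while the IDPN-3wk libraries overlapped with Control. Its edgeR log2 fold change was -1.64 ± 0.33 (SE, adjusted p = 0.0160) at 7 weeks and -0.73 ± 0.32 (adjusted p = 0.310) at 3 weeks, and the difference between 7 and 3 weeks did not pass the test (-0.92 ± 0.32, adjusted p = 0.255). The call was lost without Control replicate 1 or 2 or IDPN-7wk replicate 1 or 2 (adjusted p from 0.0504 to 0.0764). At 3 weeks the difference depended on the set of libraries, being 0.066 on the log2(CPM + 2) scale for those with fewer detected genes and -1.38 within the others.

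The other alpha members were low. Pcdha4 with the identifier ENSRNOG00000047174 ranged from 1.11 to 4.90 CPM over all libraries and overlapped between groups, with log2 fold changes of -0.19 ± 0.62 and -0.59 ± 0.62 (SE, edgeR adjusted p = 0.924 and 0.695). The second identifier, ENSRNOG00000050378, was at 0.378, 1.47 and 0 CPM in Control, 0 in IDPN-3wk, and 0.448, 0.144 and 0.354 CPM in IDPN-7wk, with no call.

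Type II classical cadherins, which serve selective adhesion between cell types, included 2 members that fell at both times and 1 that rose at 7 weeks. The paper lists Cdh18, from published work, as HC-selective relative to supporting cells. Cdh18 was at 25.2, 19.2 and 18.9 CPM in Control, 8.39, 7.24 and 6.73 CPM in IDPN-3wk, and 3.85, 4.56 and 4.71 CPM in IDPN-7wk. The 3 groups did not overlap and each was narrow. By edgeR, the log2 fold change was -1.50 ± 0.22 (SE, adjusted p = 0.0111) at 3 weeks and -2.27 ± 0.23 (adjusted p = 0.000430) at 7 weeks, and -0.77 ± 0.22 (adjusted p = 0.181) between 7 and 3 weeks. At 3 weeks the call was lost without Control replicate 1 (adjusted p = 0.0632), and the call at 7 weeks was kept under every alternative run.

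Cdh19, a cadherin known from neural crest derivatives such as Schwann cells, was at 49.3, 59.2 and 47.5 CPM in Control, 18.3, 26.9 and 19.2 CPM in IDPN-3wk, and 10.2, 18.8 and 18.9 CPM in IDPN-7wk. Both exposed groups lay below Control and overlapped with each other. By edgeR, the log2 fold change was -1.28 ± 0.25 (SE, adjusted p = 0.0350) at 3 weeks and -1.71 ± 0.26 (adjusted p = 0.00387) at 7 weeks. The call at 7 weeks was kept under every alternative run, and the call at 3 weeks was lost without any Control library, IDPN-3wk replicate 1 or 3 or IDPN-7wk replicate 2 or 3 (adjusted p from 0.0535 to 0.132), and with the libraries of fewer detected genes as a covariate (0.0695). The summed level of 8 Schwann cell markers was 9660 to 12130 CPM in Control, 7775 to 10290 in IDPN-3wk and 3279 to 6886 in IDPN-7wk. None of these markers was called at 3 weeks and 3 were called lower at 7 weeks, where 3.13% of all genes tested were called lower. Their part in the result was not tested.

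Cdh5, the adherens junction cadherin of endothelium, went up late. It was at 40.9, 40.5 and 30.9 CPM in Control, 33.9, 41.6 and 45.4 CPM in IDPN-3wk, and 50.8, 69.3 and 59.0 CPM in IDPN-7wk. Every IDPN-7wk library was above every other library. By edgeR, the log2 fold change was 0.67 ± 0.17 (SE, adjusted p = 0.0494) at 7 weeks and 0.11 ± 0.17 (adjusted p = 0.823) at 3 weeks. The call at 7 weeks was lost without any 1 library except IDPN-3wk replicate 1 (adjusted p from 0.0545 to 0.185), and with the libraries of fewer detected genes as a covariate (0.0704). Without those libraries its log2 fold change was 0.55 (edgeR adjusted p = 0.0356), under the fold required. The summed level of 6 endothelial markers was 368 to 432 CPM in Control and 295 to 462 in IDPN-7wk, and 1 of them, Flt1, was called lower at 7 weeks. Their part in the result was not tested.

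Of the other 8 type II members, Cdh7 was at 15.6, 17.98 and 16.4 CPM in Control, 11.1, 8.45 and 10.4 in IDPN-3wk and 13.9, 14.7 and 12.1 in IDPN-7wk. All exposed libraries were below Control without passing the edgeR test (log2 fold change -0.74 ± 0.19, SE, adjusted p = 0.0936 at 3 weeks), and DESeq2 called it at 3 weeks. Cdh11, a cadherin of mesenchymal cells, overlapped with Control at both times, with means of 126 ± 13.9, 105 ± 20.4 and 138 ± 6.90 CPM (SD, n = 3). Cdh8, Cdh20 and Cdh22, all under 6 CPM, had every exposed library below Control at both times and were not called.

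Type I classical cadherins, which hold most epithelial and neural adherens junctions together, included no DEG. Cdh1, the epithelial E-cadherin, was at 530, 498 and 530 CPM in Control, 558, 572 and 589 CPM in IDPN-3wk, and 860, 669 and 625 CPM in IDPN-7wk. Every exposed library was above every Control library. By edgeR, the log2 fold change was 0.14 ± 0.11 (SE, adjusted p = 0.597) at 3 weeks and 0.47 ± 0.11 (adjusted p = 0.0376) at 7 weeks, the latter under the fold change of 1.5.

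Cdh3, the P-cadherin that many epithelia carry beside Cdh1, was at 17.2, 17.1 and 26.5 CPM in Control, 32.3, 50.5 and 37.4 CPM in IDPN-3wk, and 21.2, 40.5 and 28.5 CPM in IDPN-7wk. Its IDPN-3wk libraries were above Control, but the difference did not pass the edgeR test (log2 fold change 0.98 ± 0.28, SE, adjusted p = 0.117), and DESeq2 called it at 3 weeks. Cdh2, the neural N-cadherin, overlapped between all groups, at 58.4 ± 12.1, 46.0 ± 4.63 and 51.9 ± 8.15 CPM (SD, n = 3, adjusted p = 0.379 and 0.687). Cdh4, the R-cadherin, did not exceed 1.00 CPM in any library.

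Among the other cadherins Cdhr2 rose. It encodes a cadherin that links the tips of intestinal microvilli together with Cdhr5. It was at 8.01, 5.89 and 6.89 CPM in Control, 27.8, 18.5 and 14.8 CPM in IDPN-3wk, and 17.7, 15.6 and 17.0 CPM in IDPN-7wk. Every exposed library was above every Control library, and the exposed groups overlapped. In edgeR its log2 fold change was 1.55 ± 0.26 (SE, adjusted p = 0.0154) at 3 weeks and 1.28 ± 0.25 (adjusted p = 0.0155) at 7 weeks. At 3 weeks the call was lost without any Control library (adjusted p = 0.0595, 0.0779 and 0.0511), and with only the 2 groups compared in the fit. At 7 weeks it was lost without Control replicate 2 (0.0702) or IDPN-7wk replicate 1 (0.0632) or 3 (0.0574). The difference at 3 weeks was 1.47 on the log2(CPM + 2) scale among libraries with fewer detected genes, and 0.92 among the others.

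Its partner Cdhr5 reached at most 0.506 CPM and was not tested. Cdhr1, known from photoreceptor outer segments, was at 1.19, 2.29 and 0 CPM in Control and 3.58, 7.09 and 3.39 CPM in IDPN-7wk, above Control in every library but with an edgeR adjusted p of 0.561. Cdh13, a cadherin anchored to the membrane by a lipid and lacking a cytoplasmic part, was at 1.11, 1.22 and 0 CPM in Control and at 0 in every IDPN-7wk library (adjusted p = 0.194).

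Among the non-clustered protocadherins, which have their own genes outside the arrays, Pcdh20 fell. It was at 577, 484 and 440 CPM in Control, 253, 320 and 317 CPM in IDPN-3wk, and 359, 307 and 356 CPM in IDPN-7wk. Every exposed library was below every Control library, and the exposed groups overlapped. In edgeR its log2 fold change was -0.75 ± 0.13 (SE, adjusted p = 0.0187) at 3 weeks and -0.55 ± 0.13 (adjusted p = 0.0323) at 7 weeks, the latter under the fold change of 1.5. At 3 weeks the call was lost without Control replicate 1 (adjusted p = 0.0801) or 2 (0.0644), and with only the 2 groups compared in the fit. A call at 7 weeks was gained without Control replicate 3 (-0.64, adjusted p = 0.0324), and with the libraries of fewer detected genes as a covariate. The difference at 3 weeks was -0.63 on the log2(CPM + 2) scale among libraries with fewer detected genes and -0.73 within the others.

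Pcdh20 made up most of the class sum, which was 505 to 653 CPM in Control, 368 to 410 in IDPN-3wk and 402 to 439 in IDPN-7wk, while the class median stayed near 0. Pcdh18 was at 18.7, 24.6 and 13.9 CPM in Control, 32.7, 37.2 and 22.1 in IDPN-3wk and 24.99, 32.2 and 27.0 in IDPN-7wk, with log2 fold changes of 0.68 ± 0.25 and 0.56 ± 0.25 (SE, edgeR adjusted p = 0.222 and 0.262). Pcdh9 had means of 20.2 ± 6.54, 20.6 ± 4.84 and 21.5 ± 4.27 CPM (SD, n = 3), and its libraries overlapped between the groups. Pcdh1, Pcdh7, Pcdh10, Pcdh17 and Pcdh19 also overlapped with Control at both times, and Pcdh12 was at 1.35, 2.54 and 0 CPM in Control and at 3.99, 2.86 and 4.25 CPM in IDPN-7wk (adjusted p = 0.630).

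**Figure D4:**
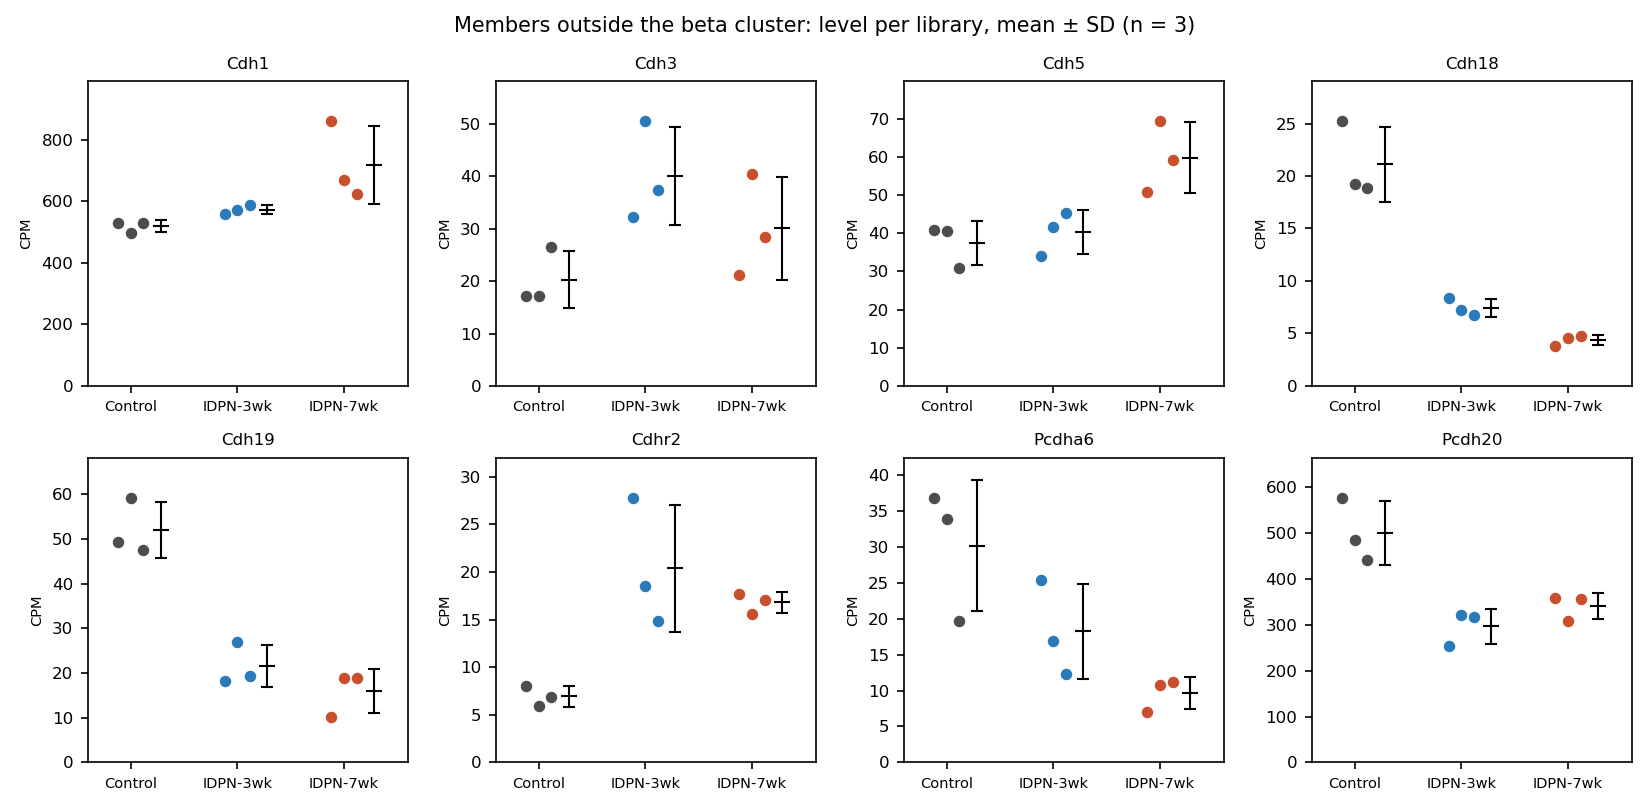
Level in CPM of 8 members outside the beta cluster in each library, with the group mean and SD beside the points (n = 3) and axes starting at 0. Cdh18 separates all 3 groups (18.9 to 25.2, 6.73 to 8.39 and 3.85 to 4.71 CPM), Cdh19 and Pcdh20 are lower and Cdhr2 higher than Control at both times, and Cdh5 is raised in IDPN-7wk.

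Among partners of the family, 3 of the genes tested were called, all at 7 weeks, when 5.13% of all genes tested were called. Of 11 catenins and cadherin adaptors tested, none was called at 3 weeks and 1 was lower at 7 weeks. This was Ctnnd2, the neural delta-catenin, at 28.9, 28.3 and 35.7 CPM in Control and 11.4, 13.4 and 15.9 CPM in IDPN-7wk (log2 fold change -1.19, edgeR adjusted p = 0.00926). Of 14 other genes of the cadherin superfamily, 1 was called lower at 7 weeks, the planar polarity cadherin Celsr1 (log2 fold change -0.89, adjusted p = 0.0225). Of 4 nectins, adhesion proteins that act beside cadherins, Nectin2 was called higher at 7 weeks (log2 fold change 0.66, adjusted p = 0.00954). None of 5 genes for proteases that shed cadherins was called in any comparison.

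The clustered protocadherins are known largely from neurons. Of 7 neuron markers 6 were tested and none was called, and their summed level was 65.9 to 90.0 CPM in Control, 57.0 to 64.9 in IDPN-3wk and 52.9 to 70.9 in IDPN-7wk. Nefl, at 29.4 to 42.4 CPM over all libraries, Rbfox3 and Tubb3 overlapped with Control at both times. Nefm was at 25.5 to 32.2 CPM in Control, 14.6 to 17.4 in IDPN-3wk and 17.5 to 27.0 in IDPN-7wk (edgeR adjusted p = 0.0708 and 0.539). Stmn2 was at 0.345 to 0.985 CPM in Control and at most 0.123 CPM in the exposed libraries (adjusted p = 0.301 and 0.193). Slc17a7 was at 0 in all Control libraries. Nefh was at 0.108 to 0.281 CPM in Control and higher in every exposed library, at 0.338 to 2.86 CPM (edgeR adjusted p = 0.177 and 0.256). Among HC markers, 2 of 8 were lower at 3 weeks (Tmc1 and Otof) and 4 at 7 weeks. Among supporting cell markers 1 and 3 of 6 were lower. Of all genes tested, 1.21% and 3.13% were called lower at these times. The part of HCs, supporting cells and neurons in the cadherin results was not tested.

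Between 3 and 7 weeks, calls were few across the family. The median over the 62 members was 0.0048 on the log2(CPM + 2) scale, and 29 of them were lower at 7 weeks (46.8%, against 45.3% of all genes). In 3 members every IDPN-7wk library was below every IDPN-3wk library and in 7 above, where 7.98% and 12.1% of all genes were so placed. The 3 lower ones were Cdh18, Pcdha6 and Pcdhb19. At an unadjusted p under 0.05, 5 members were lower and 6 higher, against 7.46% and 6.33% of all genes tested.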

How the data were processed

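Expression was measured by RNA-seq in 9 libraries, 1 per rat and 3 per group, after cDNA amplification from oligo-dT priming. The deposited table holds estimated counts per gene. The authors mapped the reads to Rnor6.0 with STAR 2.5.3a and estimated the counts with RSEM on the Rnor6.0.92 annotation, where reads shared by similar genes are divided between them by estimation. The processing notes give RSEM 1.3.0, and whether strand was used is not given in the sources used here. All deposited values were whole numbers and were used as such. Groups came from the treatment label, and all libraries carry the same batch label. Replicate numbers follow accession order and pair nothing. The titles also carry codes that the labels do not explain. Their first part is the same in all 3 Control libraries and in no other, and IDPN-3wk replicate 1 shares one with IDPN-7wk replicate 1, so what the code marks and the Control group cannot be told apart. Library columns were matched by library name.

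Counts were tested in R 4.3.3 with edgeR 4.0.16 (limma 3.58.1): filterByExpr, TMM normalization, robust quasi-likelihood fit with 1 mean per group over the 9 libraries (6 residual degrees of freedom) and Benjamini-Hochberg adjustment over the 15517 genes tested. The test was also run on counts simulated with the means and dispersions of the fit to the real counts. CPM values use TMM-scaled totals. Class medians and sums were described without a test, and a value of 2 was added to CPM before taking log2. Replicates within a group differed beyond sampling noise (chi-square per gene of at least 19.4). Floors cover counting error only, and standard errors come from the edgeR fit across libraries. DESeq2 1.42.0 and the other alternatives are described in the closing section. The differences within each set of libraries and the alternatives for summed CPM were chosen after seeing the data.

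Named genes were the members with an adjusted p under 0.05, the 3 highest of each class and 10 set names. Other genes are named where a count or a comparison singled them out, and these (among them Cdh7, Pcdhb22, Pcdhga11 and Pcdh12) were chosen after their values were seen. Members and lists were chosen with earlier results of these data known. Fibroblast, macrophage, melanocyte and dark cell marker lists were also examined: Lum was lower and C1qb higher at 7 weeks, Bsnd was higher at 3 weeks, Kcnq1 and Slc12a2 were lower at 7 weeks, and no melanocyte marker was called. Levels were compared within genes only, since CPM takes no account of gene length.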

Additional observations from a re-analysis of the deposited data

Results flagged for a closer look

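Pcdhb19 is the 1 member whose level differed between the exposure times by a test of that difference. Its edgeR log2 fold change between IDPN-7wk and IDPN-3wk was -2.43 (adjusted p = 0.0213), with every IDPN-7wk library (0.380 to 0.658 CPM) below every IDPN-3wk library (2.18 to 3.40 CPM). Over the alternatives the change ran from -2.60 to -2.01 and the adjusted p from 1.71e-07 to 0.199, and the call was lost in 9 of 16. Within the libraries with more detected genes, where IDPN-3wk replicate 3 stands alone, the difference was -0.72 on the log2(CPM + 2) scale.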

How the results depend on the processing

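The members called at 3 weeks numbered 14 with DESeq2 in place of edgeR (4.14% of all genes), 5 where every library had to hold at least 10 counts (2.47%), 4 with only the 2 groups compared in the fit (0.794%), and 0 to 14 with each library left out in turn. At 7 weeks the same filter gave 6 (7.03% of all genes), and they numbered 20 with only the 2 groups (8.19%), 26 without the libraries with fewer detected genes (9.56%), and 4 to 13 with each library left out. Between 7 and 3 weeks DESeq2 called 3 (2.96% of all genes), and none was called with only the 2 groups, with those libraries as a covariate or without them (0.304%, 0.238% and 0.330% of all genes), and 0 to 3 with each library left out. The shares of all genes called were 1.65%, 5.13% and 0.483% in the report. At least 10 counts in every library removes the genes that reach 0. The other causes were not tested. RLE size factors left all 3 counts at 8, 10 and 1. A total of at least 10 counts gave 8, 9 (without Cdh5) and 1. The log2 fold change of Cdh5 at 3 weeks, not called, was -0.015 without Control replicate 3 and ran to 0.22 with each library left out. Every call kept its direction in all alternatives run.

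The beta cluster median was -1.64, -2.59 and -0.95 (3 weeks, 7 weeks, between times) under the filter of 10 counts per library, which leaves Pcdhb19 alone, and -2.58 and -2.66 against Control with 0.5 added to CPM. From summed CPM it was -2.94, -4.13 and -1.20. It was -1.48 at 7 weeks with the covariate, and -1.48 at 7 weeks and -0.22 between times without the libraries with fewer detected genes. With each library left out it ran from -1.50 to -1.26 at 3 weeks. Summed CPM gave -1.50 at 7 weeks and -0.81 between times for the alpha cluster, 1.28 and 1.26 for the other cadherins, -0.57 and -0.45 for the non-clustered protocadherins and 0.42 at 7 weeks for the type I cadherins, where Cdh1 dominates and the median is negative. At least 10 counts in every library gave 1.29 and 1.08 for the other cadherins and -0.84 at 7 weeks for the alpha cluster, and 0.5 added to CPM gave 0.53 at 7 weeks for the other cadherins. Without the libraries with fewer detected genes the medians were -0.31 (type I, 3 weeks), -0.32 (gamma, 3 weeks) and -0.14 (gamma, between times), and the log2 ratios of sums were -1.49 (alpha, 3 weeks), -0.19 (alpha, between times), 0.92 (other cadherins, 3 weeks), 0.14 (type II, between times) and -0.14 (gamma, between times). No paired analysis was possible because the labels give no replicate numbers, and the code in the sample titles is unexplained and shared by no Control and exposed library. Pcdhb members under about 1 CPM in exposed rats rest on few counts.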
